A study of Mus musculus with 2 samples.

Results

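The 7 genes described here, Gabra2, Gabra3, Gabra4, Gabra5, Gabrb1, Gabrb2 and Gabrg1, encode subunits of the GABA-A receptor. They were chosen by name, by matching the Ensembl identifiers of the expression tables to GENCODE gene symbols. Earlier results of these data were known when the choice was made. All 7 were found among the 43346 Ensembl genes of the tables. Total RNA was sequenced in 2 libraries from the midbrain of mice at embryonic day 14.5. Each library was made from the midbrain of 1 pup of the B6NCrl strain, and the pups were collected on different days. No treatment or mutant allele is named for either animal, and the libraries form 1 group of 2 biological replicates, called embryo 1 and embryo 2. Whole tissue was used, so a gene's level mixes all cell types, and fewer cells of a type cannot be told apart from less RNA per cell.

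The GABA-A receptor is a chloride channel of 5 subunits that opens when it binds GABA, the main inhibitory transmitter of the adult brain. Most receptors combine alpha, beta and gamma subunits. GABA binds between a beta and an alpha subunit, benzodiazepines bind between an alpha and a gamma subunit, and the alpha subunit largely sets where a receptor sits and which drugs it responds to. In immature neurons GABA often depolarises the cell, because the chloride importer Slc12a2 dominates over the exporter Slc12a5, and GABA then acts on proliferation, migration and synapse formation. Levels below are in TPM, a gene's share of all transcripts in a library after correction for transcript length, so they can be compared between genes. Expected counts are reads assigned to a gene.

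The genes Gabrg1, Gabra2, Gabra4 and Gabrb1 lie side by side on chromosome 5, and the other 3 lie on chromosomes 7, 11 and X, each beside other subunit genes. The chromosome 5 group ran from position 70751047 to 72149037 of the GRCm38 assembly, a span of 1398 kb, in the order Gabrg1, Gabra2, Gabra4, Gabrb1. The sequences before their start sites are given to show how unlike the promoters of these neighbours are. Each is the 250 bases before a start site, 5′ to 3′ on the gene's strand, from the RefSeq promoter table for GRCm38.p6, with every CpG in capitals. For Gabra4, Gabrb1 and Gabrg1 the site is the start of the only transcript that was quantified, whereas for Gabra2 it lies 1209 bases before it.
Gabra2 (chr5:71095850-71096099, minus strand): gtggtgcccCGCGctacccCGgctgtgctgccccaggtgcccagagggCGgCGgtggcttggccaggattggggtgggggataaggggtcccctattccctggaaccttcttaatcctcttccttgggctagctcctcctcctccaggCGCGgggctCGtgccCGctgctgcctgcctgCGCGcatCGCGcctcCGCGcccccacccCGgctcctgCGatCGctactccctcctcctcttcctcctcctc
Gabra4 (chr5:71658309-71658558, minus strand): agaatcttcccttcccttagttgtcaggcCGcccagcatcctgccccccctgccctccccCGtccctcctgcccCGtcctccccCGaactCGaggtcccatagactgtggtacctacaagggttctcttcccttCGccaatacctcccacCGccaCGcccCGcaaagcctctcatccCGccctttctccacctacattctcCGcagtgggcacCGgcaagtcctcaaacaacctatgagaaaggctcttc
Gabrb1 (chr5:71699682-71699931, plus strand): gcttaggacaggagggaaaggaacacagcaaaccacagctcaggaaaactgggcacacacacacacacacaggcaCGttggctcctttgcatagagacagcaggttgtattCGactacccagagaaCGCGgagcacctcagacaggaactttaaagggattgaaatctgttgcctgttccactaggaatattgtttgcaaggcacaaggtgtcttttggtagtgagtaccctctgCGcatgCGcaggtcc
Gabrg1 (chr5:70842618-70842867, minus strand): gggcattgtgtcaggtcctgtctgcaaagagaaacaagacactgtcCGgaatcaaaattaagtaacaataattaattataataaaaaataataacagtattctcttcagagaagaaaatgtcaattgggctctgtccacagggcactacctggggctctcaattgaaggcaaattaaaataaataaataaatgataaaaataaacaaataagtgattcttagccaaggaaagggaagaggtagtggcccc

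The Gabra2 sequence held 18 CpGs at a GC content of 70.0%. The Gabra4 sequence held 12 CpGs at 61.2% GC, the Gabrb1 sequence 6 at 50.8% and the Gabrg1 sequence 1 at 35.6%. Over the 32851 promoter windows of this length in the table, the median was 6 CpGs and 52.4% GC, and 78.3% of windows held fewer CpGs than the Gabra2 sequence. Only 7.87% held fewer than the Gabrg1 sequence. Gabrb1 has another annotated start 42011 bases upstream of the quantified one, whose window held 18 CpGs, as many as the Gabra2 sequence. That window lies within the span of Gabra4. No transcript from that upstream start was in the deposited tables, so its use was not measured. RefSeq gave 11 windows for the 7 genes. The motif TATAAA, searched on both strands, was present in 3 of the 11 windows and in 12.4% of all windows. Those 3 were both Gabra3 windows, which overlap and hold no CpG, and 1 of the 3 Gabrb2 windows, where the motif begins 30 bases before the start site. These matches describe letters in the windows only.

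All 7 genes were detected, meaning that the TPM was 1 or more in each embryo, a rule that 59.5% of protein-coding genes passed. Their mean levels ran from 7.24 TPM for Gabra4 to 35.8 TPM for Gabrb2. The 7 genes summed to 140.71 TPM in embryo 1 and 144.28 TPM in embryo 2 (mean 142 ± 2.52, SD, n = 2). Protein-coding genes detected in both embryos had a median of 20.3 TPM. Gabrb2, Gabra2 and Gabra3 lay above that median, Gabra5 close to it, and Gabrb1, Gabrg1 and Gabra4 below it.

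**Figure D1:**
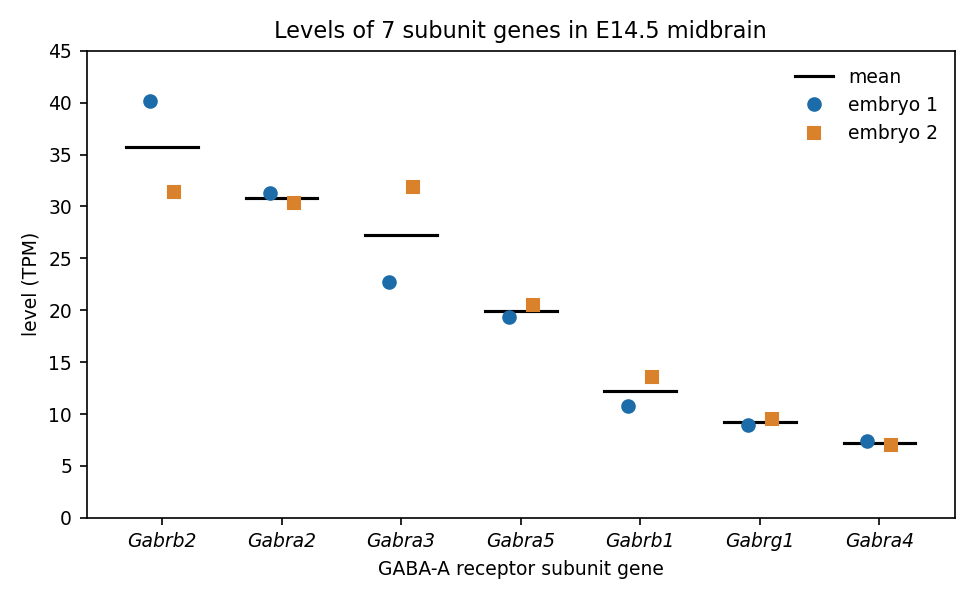
Level in TPM (vertical axis) of each of the 7 GABA-A receptor subunit genes (horizontal axis, in order of mean level). Circles are embryo 1, squares are embryo 2 and bars are means of both, and Gabra3 and Gabrb2 show the widest gaps between the embryos.

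Among the alpha genes described here, Gabra2 had the highest mean level, and its embryos lay close together. Gabra2 encodes alpha 2, a subunit abundant in the embryonic and forebrain receptor and found at the axon initial segment in adult neurons. It measured 31.31 TPM (1375 expected counts) in embryo 1 and 30.34 TPM (1330) in embryo 2, with a mean of 30.8 ± 0.686 (SD, n = 2). After scaling for library size, the expected count in embryo 2 was 1.07 times that in embryo 1, with a 95% counting interval of 0.993 to 1.16. The counts of Gabra2 therefore did not differ beyond counting error. The gene spans 138 kb on the minus strand of chromosome 5, from 70957597 to 71095849. Only 1 of its transcripts, Gabra2-201, was quantified. The later GENCODE M21 annotation holds 6 Gabra2 transcripts, gives 1 of them as protein coding and lists Gabra2-201 as a target of nonsense-mediated decay. Its level therefore rests on reads assigned to 1 transcript model, and how GENCODE M4 annotated that model was not seen here.

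Gabra3 showed the widest gap of the 7 genes. It encodes alpha 3, a subunit of early receptors that in the adult brain is found in monoaminergic and reticular thalamic neurons among others. It measured 22.72 TPM (1126 counts) in embryo 1 and 31.86 TPM (1551 counts) in embryo 2 (mean 27.3 ± 6.46, SD, n = 2). The scaled count in embryo 2 was 1.53 times that in embryo 1 (95% counting interval 1.41 to 1.65). Counting error, taking reads as independent, is smaller than that gap, but 2 animals give no estimate of how often such a gap arises. Of the genes with at least 100 summed counts, 86.8% differed less between the embryos. Gabra3 lies on the minus strand of chromosome X from 72432681 to 72656848. Judged by their sex-linked genes, the embryos differed in sex, although the sex entry in both labels reads pooled. Xist, the RNA that coats the inactive X, had 3 counts in embryo 1 and 20808 in embryo 2, and the Y-linked gene Eif2s3y had 1901 and 0. The 497 X-linked genes with at least 100 counts had a median log2 ratio of 0.01, beside 0.61 for Gabra3. The part of sex in the Gabra3 gap was not tested.

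Gabra5 came next in level. It encodes alpha 5, which is concentrated outside synapses and is best known from the hippocampus. It measured 19.32 TPM in embryo 1 and 20.53 TPM in embryo 2 (mean 19.9 ± 0.856, SD, n = 2), from 944.95 and 1002.61 expected counts. The scaled ratio was 1.18 (95% counting interval 1.07 to 1.29). Gabra5 lies on the minus strand of chromosome 7 from 57407672 to 57510059. The fractions in its counts arise beside Gm9962, an annotated antisense gene within it that held 1.05 and 7.39 counts, since the counts of both together came to 946 and 1010. No source used here says whether the counting used strand, so how reads shared by Gabra5 and Gm9962 were split cannot be checked.

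Gabra4 was the lowest of the 7. It encodes alpha 4, which in the adult forebrain joins the delta subunit in receptors outside synapses. It measured 7.45 TPM (574 counts) in embryo 1 and 7.02 TPM (540 counts) in embryo 2 (mean 7.24 ± 0.304, SD, n = 2). The scaled ratio was 1.04 (95% counting interval 0.925 to 1.17), so the counts did not differ beyond counting error. Gabrd, the gene of the delta subunit, held only 2 and 5 counts. Gabra4 spans 88.6 kb on the minus strand of chromosome 5 from 71569749 to 71658308.

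Of the beta genes described here, Gabrb2 had the highest mean level of all 7 genes, and Gabrb1 was lower than Gabrb2 in both embryos. Gabrb2 encodes beta 2, a common beta subunit of adult receptors. It measured 40.14 TPM (2793 counts) in embryo 1 and 31.38 TPM (1938 counts) in embryo 2 (mean 35.8 ± 6.19, SD, n = 2). It was the only one of the 7 with a higher scaled count in embryo 1, by 1.30 times (95% counting interval 1.23 to 1.38). The gene spans 209 kb on the plus strand of chromosome 11 from 42419757 to 42629028.

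Gabrb1 encodes beta 1, a subunit of wide but mostly low expression in the adult brain. It measured 10.79 TPM (618 counts) in embryo 1 and 13.59 TPM (777 counts) in embryo 2 (mean 12.2 ± 1.98, SD, n = 2). The scaled ratio was 1.39 in favour of embryo 2 (95% counting interval 1.25 to 1.55). The ratio of Gabrb2 to Gabrb1 in TPM was therefore 3.72 in embryo 1 and 2.31 in embryo 2, the genes differing in opposite directions between the animals. Gabrb1 is the longest of the 7, spanning 491 kb on the plus strand of chromosome 5 from 71658113 to 72149037.

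Gabrg1, the gamma member, encodes gamma 1, a subunit whose receptors respond weakly to many benzodiazepines and which glia also express. It measured 8.98 TPM (804 counts) in embryo 1 and 9.56 TPM (854 counts) in embryo 2 (mean 9.27 ± 0.410, SD, n = 2). The scaled ratio was 1.18 (95% counting interval 1.07 to 1.30). It lies on the minus strand of chromosome 5 from 70751047 to 70842617. Which cells of the midbrain gave these reads was not measured.

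By mean level the order was Gabrb2, Gabra2, Gabra3, Gabra5, Gabrb1, Gabrg1, Gabra4. The top of that order is not settled by 2 animals. Gabrb2 and Gabra2 differed by 4.94 TPM, less than the SD of Gabrb2, and the lower Gabrb2 value, 31.38 TPM, stood just above the higher Gabra2 value, 31.31 TPM. Gabra2 and Gabra3 differed by 3.54 TPM and changed places between the embryos. In embryo 2, Gabra3 at 31.86 TPM also stood above Gabrb2. Each later step, from Gabra3 down to Gabra4, exceeded the larger SD of its pair, and the embryos of neighbouring genes did not overlap.

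Shares were taken among the alpha genes and among the beta genes described here, not over whole subunit classes. Among the 4 alpha genes, Gabra2 held 38.8% of their summed TPM in embryo 1 and 33.8% in embryo 2 (mean 36.3 ± 3.50, SD, n = 2). Gabra3 held 28.1% and 35.5% (31.8 ± 5.22), so the leading gene of the 4 was Gabra2 in embryo 1 and Gabra3 in embryo 2. The ratio of Gabra2 to Gabra3 was 1.38 in embryo 1 and 0.952 in embryo 2. Gabra5 held 23.9% and 22.9%, nearly the same in both, and Gabra4 held 9.22% and 7.82%.

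Between the 2 beta genes, Gabrb2 held 78.8% in embryo 1 and 69.8% in embryo 2 (mean 74.3 ± 6.39, SD, n = 2). Gabrb1 held the remaining 21.2% and 30.2%. Gabrg1 is the only gamma gene of the 7, so no share was taken for it. These are shares of RNA, and the subunit make-up of receptors was not measured.

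**Figure D2:**
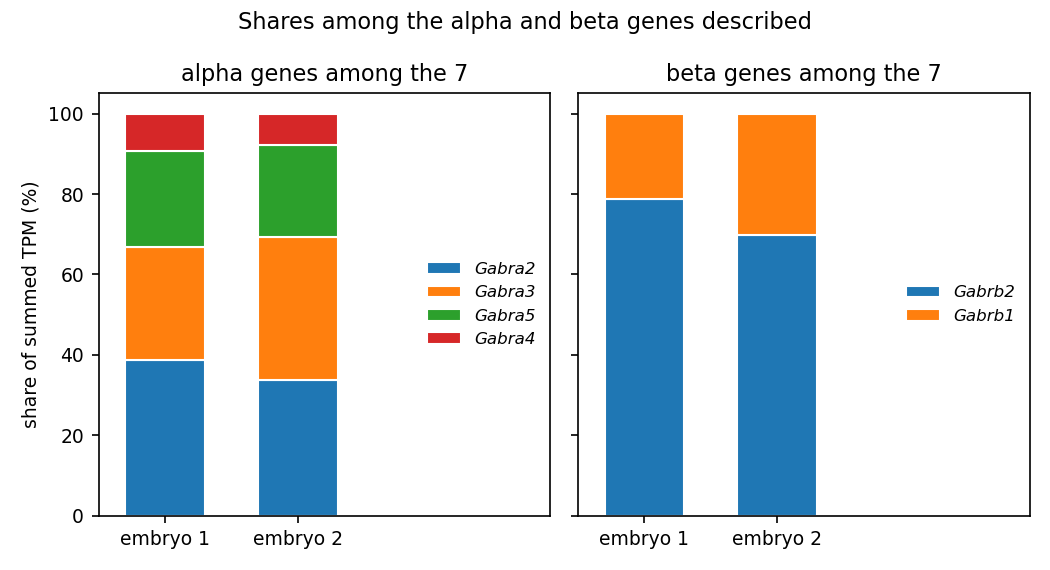
Share of summed TPM (vertical axis, percent) taken by each of the 4 alpha genes (left) and 2 beta genes (right) in embryo 1 and embryo 2, as stacked bars. Gabra3 takes 28.1% of the alpha bar in embryo 1 and 35.5% in embryo 2, and Gabrb1 takes 21.2% and 30.2% of the beta bar.

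Among the other subunit genes listed, Gabrg3 stood at 3.60 ± 0.0778 TPM (SD, n = 2) and Gabrq, which encodes theta, at 2.88 ± 0.523. Gabra6, known from cerebellar granule cells, had 1 count in embryo 1 and 0 in embryo 2, where 3 counts would amount to 0.0764 TPM. Gabrp, the gene of the pi subunit, was the lowest with 0 counts in both embryos, which allows up to 0.0883 TPM in embryo 1. Neither Gabrg3 nor Gabrq reached a 2-fold gap between the embryos, which 4.78% of genes with at least 100 summed counts reached.

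None of the 7 genes was 2-fold apart between the embryos. Of the 14011 genes with at least 100 summed counts, 4.78% were, so 0 of 7 is close to that background. At 1.5-fold, 1 of 7 passed, Gabra3, beside 14.2% of all genes. The median absolute log2 ratio was 0.23 for the 7 genes and 0.23 for all genes with at least 100 counts. By sign, 6 of the 7 were higher in embryo 2, beside 7085 of the 14011 genes. The median log2 ratio was 0.23 for the 7 and 0.01 over all genes. That split depends on the scaling. With ERCC spike-in scaling, or with TPM ratios, 4 were higher in embryo 2 and 3 in embryo 1, since Gabra2 and Gabra4 changed sign. The median log2 ratio of the 7 was then 0.12 and 0.09, and that of all genes -0.11 and -0.13. Gabra3, Gabra5, Gabrb1 and Gabrg1 stayed higher in embryo 2, and Gabrb2 in embryo 1, under each scaling used. For Gabra5 and for Gabrg1, the log2 ratio fell from 0.23 to 0.12 with spike-in scaling and to 0.09 by TPM. The counting intervals given above hold for the main scaling alone.

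**Figure D3:**
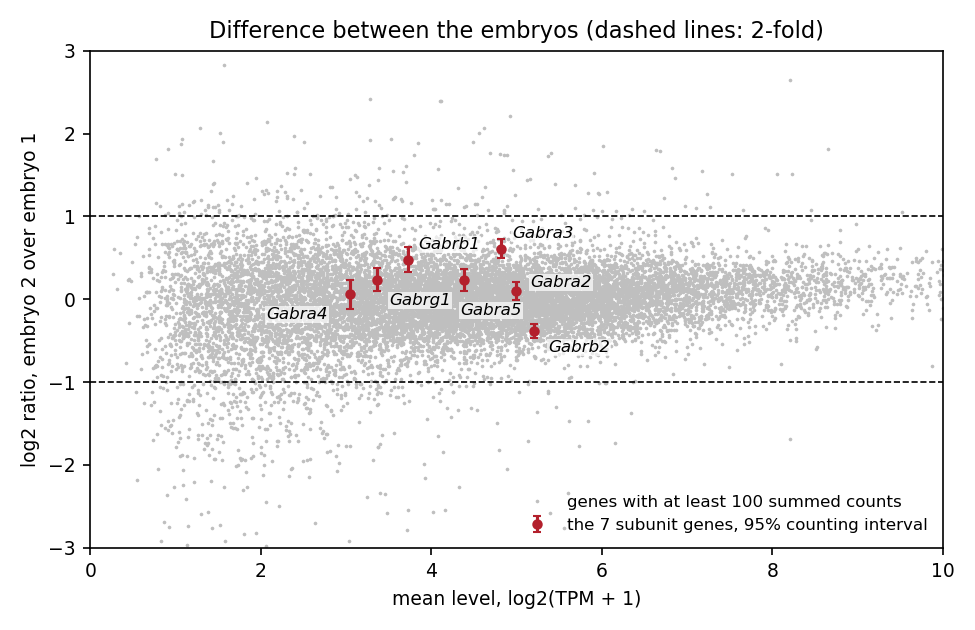
Log2 ratio of scaled expected counts, embryo 2 over embryo 1 (vertical axis), against mean level as log2(TPM + 1) (horizontal axis), for genes with at least 100 summed counts (grey) and the 7 subunit genes (red, with 95% counting intervals). Dashed lines mark 2-fold, 160 grey genes lie outside the axes, and all 7 subunit genes lie between the lines.

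Marker RNAs of several cell types also differed between the embryos. Of all protein-coding genes, 59.5% were detected by the rule above. The 8 markers of immature neurons, all detected, summed to 4958 TPM in embryo 1 and 5548 in embryo 2, with a median log2 ratio of 0.25. Of these, 7 were higher in embryo 2 and 1, Dcx, in embryo 1. The 8 markers of later, synaptic neurons summed to 356 and 371 TPM, with a median log2 ratio of 0.32. Here too 7 were higher in embryo 2 and 1, Syn1, in embryo 1. Of the 14011 genes with at least 100 summed counts, 7085 were higher in embryo 2 and 6926 in embryo 1. The 6 cell cycle markers summed to 344 and 205 TPM. All 6 were higher in embryo 1, with log2 ratios from -1.36 for Top2a to -0.04 for Pcna. The 6 mesenchyme and meninges markers summed to 395 and 7.39 TPM. All 6 were at least 2-fold higher in embryo 1, beside 470 of the 14011 genes with at least 100 summed counts. The 6 microglia and macrophage markers summed to 100 and 38.0 TPM, and the 5 endothelial markers to 120 and 79.8 TPM. The 6 progenitor markers summed to 1867 and 1990 TPM, with 3 higher in each embryo and a median log2 ratio of -0.01. All 4 midbrain markers were detected, summing to 213 and 163 TPM. Of 4 forebrain markers, 2 were detected, Neurod6 at 17.63 and 14.63 TPM and Eomes at 1.30 and 1.52 TPM. None of 3 posterior Hox markers was detected, with Hoxb4 and Hoxc8 at 0. The part of these marker differences in the gaps of the 7 genes was not tested.

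On chromosome 5 the 4 neighbours differed in level although they share 1 region. Gabra2 stood at 30.8 TPM, above Gabrb1 at 12.2, Gabrg1 at 9.27 and Gabra4 at 7.24. A gap of 115 kb separates Gabrg1 from Gabra2, and 474 kb separates Gabra2 from Gabra4. Gabra4 and Gabrb1 point away from each other and their annotated spans overlap by 196 bases, but the exons of the transcripts that were quantified do not overlap. The 4 genes summed to 58.5 TPM in embryo 1 and 60.5 in embryo 2, with log2 ratios from 0.06 to 0.48. On chromosome X, Gabre, Gabra3 and Gabrq summed to 26.4 and 34.8 TPM, and Gabrq stood at -0.16 on the log2 scale while Gabra3 stood at 0.61.

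**Figure D4:**
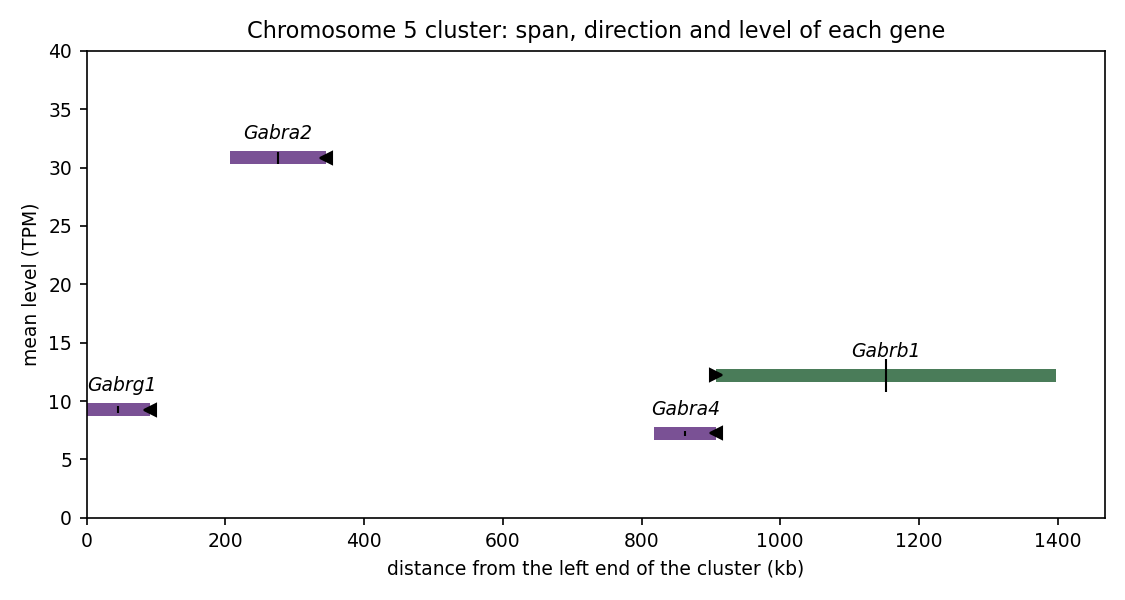
Mean level in TPM (vertical axis) of the 4 genes of the chromosome 5 group, drawn to scale against distance from the group's left end in kb (horizontal axis). Horizontal bars are gene spans coloured by strand, triangles mark gene starts and their direction, and vertical lines span both embryos, with Gabra2 highest at 30.8 TPM.

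Only Gabra3 and Gabrb2 had more than 1 quantified transcript. Gabra3-201, with 492 annotated codons, took 55.0% of the gene's TPM in embryo 1 and 51.6% in embryo 2. Gabra3-202, with 41 more codons, took 33.8% and 39.3%, and Gabra3-203, a non-coding processed transcript, took 11.2% and 9.11%. By expected counts, not corrected for length, Gabra3-202 held 22.1% and 26.1%. Gabra3-203 rested on only 23.8 and 27.2 expected counts, or 2.12% and 1.75% of the gene's counts. In TPM, Gabra3-201 stood at 12.51 in embryo 1 and 16.42 in embryo 2, and Gabra3-202 at 7.68 and 12.53, so both coding forms were higher in embryo 2.

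Gabrb2-201 took 90.9% of Gabrb2 TPM in embryo 1 and 77.3% in embryo 2 (mean 84.1 ± 9.65, SD, n = 2). The processed transcript Gabrb2-202 took 5.61% and 15.4%, but from only 24.1 and 51.7 expected counts. Gabrb2-205, named here after its values were seen, encodes a form with 38 more codons than Gabrb2-201 and took 2.19% and 4.53% of TPM from 24.4 and 39.2 counts. Of the transcripts with counts, only Gabrb2-201 was lower in embryo 2, at 36.50 TPM in embryo 1 and 24.25 TPM in embryo 2. The minor forms are short or thinly covered, and their shares are estimates by the authors' quantifier.

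**Figure D5:**
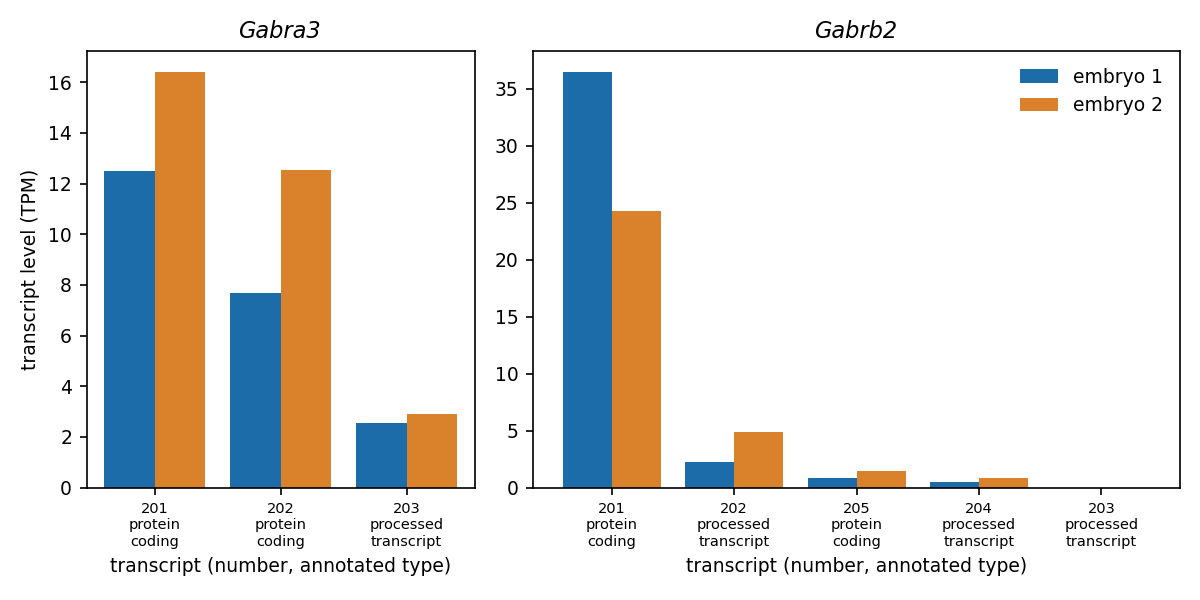
Level in TPM (vertical axes) of each quantified transcript of Gabra3 (left) and Gabrb2 (right) in embryo 1 and embryo 2 (bars), labelled by transcript number and annotated type. Gabrb2-201 stands at 36.50 and 24.25 TPM, and both coding transcripts of Gabra3 are higher in embryo 2.

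The genes that make, move and answer to GABA around these subunits were also present. The 5 genes of GABA synthesis and transport that were listed were all detected, beside 59.5% of protein-coding genes. Their log2 ratios ran from 0.04 to 0.27. None of the 5 was 2-fold apart, which is close to the background of 4.78% of genes with at least 100 summed counts. Gad1, the enzyme of most GABA synthesis, stood at 86.92 TPM in both embryos, and Gad2 at 46.5 ± 1.48 (SD, n = 2). The vesicular transporter Slc32a1 was lowest at 6.43 ± 0.396 TPM. The chloride exporter Slc12a5 stood at 28.8 ± 3.07 TPM and the importer Slc12a2 at 7.51 ± 0.410 TPM. Transport activity was not measured.

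The 15 listed genes of receptor anchoring and trafficking were all detected, beside 59.5% of protein-coding genes, with a median of 49.7 TPM. None of the 15 was 2-fold apart, beside 4.78% of all genes with at least 100 counts. At 1.5-fold, 3 of 15 passed, beside 14.2% of all genes with at least 100 counts. These 3 were higher in embryo 2, namely Hap1 at a log2 ratio of 0.76, Gabarapl1 at 0.62 and Lhfpl4 at 0.61. Lhfpl4 is a partner of synaptic receptors. Gephyrin itself, Gphn, measured 44.71 and 44.31 TPM. Gabarap, which binds gamma subunits, was the highest at 498 ± 4.99 TPM (SD, n = 2), and Plcl1 the lowest at 4.02 ± 0.0354.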

How the data were processed

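Expected counts, TPM and FPKM are the authors' deposited estimates per gene and transcript, per the file headers. They were made on mm10 with GENCODE M4, per a text record the authors deposited. No source used here names the quantifier. Per the labels, 10 ng of RNA longer than 200 nt, extracted with mirVana, and ERCC spike-ins entered each library. Genes held 31687050 counts in embryo 1 and 29182388 in embryo 2. Spike-ins took 3.15% and 3.32% of all counts. Rows with only a number as identifier (6 and 14 counts) and spike-ins were left out of the library sizes used to scale counts. The deposited TPM is a share over all rows, spike-ins included. FPKM and posterior mean values entered only as alternatives.

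Symbols and coordinates came from GENCODE M21 on GRCm38 (98.0% of Ensembl rows matched). Counts were scaled with TMM (edgeR 4.0.16), with a prior count of 0.5 for log2 ratios, and the 2-fold rule was applied to genes with at least 100 summed counts. Intervals are exact conditional binomial 95% intervals and cover counting error alone. They treat reads as independent. The reads carry no molecular identifiers and are not independent, so the intervals can be too narrow. With 1 group there was no test and no p-value. The ratio script was tested on simulated data. All 7 genes are named. Of the listed pathway genes, those detected could be named, as could the highest and lowest of a list. Gabrd, Gabra6 and Gabre were named outside this rule, after their values were seen. Transcripts are named if leading or with a mean share of at least 10%. Some genes of the classes and lists are not reported here, so shares were taken among the 7 genes. The genes and lists were chosen with earlier results of these data known.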

Additional observations from a re-analysis of the deposited data

How the results depend on the processing

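With 2 animals of 1 group, only the spread between these embryos was measured. No paired analysis was possible because the libraries form 1 group. Without embryo 1 or embryo 2 in turn, the summed TPM of the 7 genes ranged from 140.71 to 144.28 and the number detected stayed at 7. The summed TPM moved from 142 to 139 with posterior mean TPM, and to 154 with FPKM rescaled over Ensembl genes. By expected counts, not corrected for length, the share of Gabra4 among the 4 alpha genes was 13.2%, against 8.52% by TPM. At 1.5-fold, 1 gene passed in place of 0. In all, 14 recomputed summary values stayed within the limit set for their kind, among them those with DESeq2 size factors, another count minimum or another prior count. For levels the limit was the SD of the embryos, and for numbers of genes it was a fixed ratio. Of the values of single genes and transcripts, 13 moved beyond their limit and 81 did not. Many values in these tallies could not move. With 2 embryos, a value with 1 left out always stays within the SD. A gene with 1 quantified transcript keeps its whole share, and posterior mean counts were almost equal to the expected counts. The tallies therefore do not measure how robust the values are. The log2 ratio of Gabra2 was -0.01 with spike-in scaling and -0.05 by TPM, and that of Gabra4 was -0.05 and -0.08, beside 0.10 and 0.06.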

Other observations

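The glycine receptor, the other chloride channel family gated by an inhibitory transmitter, was also represented. Of its 5 genes, 3 were detected, close to the 59.5% of protein-coding genes that were. Glrb, the beta subunit that binds gephyrin, was the highest at 23.2 ± 1.48 TPM (SD, n = 2). Glra2, the alpha subunit of the immature receptor, measured 7.05 TPM (412 expected counts) in embryo 1 and 17.04 TPM (994 counts) in embryo 2. Its scaled count was 2.67 times higher in embryo 2, past the 2-fold gap that 4.78% of genes with at least 100 counts passed. Glra2 lies on chromosome X, as Gabra3 does, and the part of the embryos' sex in this gap was not tested. Glra3 stood at 1.51 and 1.54 TPM. Of the metabotropic GABA receptor genes, which encode G protein-coupled receptors, Gabbr1 stood at 89.9 ± 9.07 TPM and Gabbr2 at 7.45 ± 1.07 TPM.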
